A study of Homo sapiens with 8 samples.

Results

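The insulin-like growth factor (IGF) axis was examined through 10 genes, namely the ligand IGF2, the receptors IGF1R, INSR and IGF2R, the adaptors IRS1 and IRS2, and the binding proteins IGFBP2, IGFBP4, IGFBP5 and IGFBP6. They were taken by gene name from a table of 78691 genes, each name matched 1 row, and all 10 were found. RNA sequencing was done on 8 libraries in 4 groups of 2. C4-2B, a castration-resistant prostate adenocarcinoma line, carried either an empty lentiviral vector or a lentivirus in which the EF1A promoter drove human MYCL together with EGFP. NCI-H660, a neuroendocrine prostate cancer line, expressed a control shRNA (shCtrl) or an shRNA against MYCL (shMYCL), delivered by an adenoviral vector according to the series design, although the labels speak of stable knockdown. NCI-H660 cells were grown with added growth supplements that C4-2B cells did not receive. Transduced C4-2B cells were kept by puromycin selection or sorting, and no picking of clones is described. The labels call only the C4-2B control libraries biological replicates, so p-values measure the spread between these libraries, which may be technical.

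IGF1 and IGF2 are secreted peptides that bind the receptor tyrosine kinase IGF1R, and IGF2 also binds the insulin receptor INSR. Activated receptors phosphorylate the adaptors IRS1 and IRS2, which recruit PI3 kinase and so activate AKT, and AKT in turn keeps FOXO transcription factors out of the nucleus. IGF2R is not a signalling kinase but takes IGF2 up for degradation, and the IGFBP proteins hold the ligands outside the cell. In prostate cancer the axis is known as a growth and survival pathway.

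Library totals ranged from 15177071 to 32344170 counts. MYCL counts were 371 and 320 in C4-2B control, 65524 and 70253 in C4-2B MYCL, 1863 and 1602 in NCI-H660 shCtrl and 165 and 198 in NCI-H660 shMYCL libraries, in the order the labels imply. The 7 luminal markers (KLK3, KLK2 and others) summed to between 3970.6 and 3990.4 CPM, the read count scaled to library size, in C4-2B control and to between 1.73 and 2.14 CPM in NCI-H660 shCtrl libraries. The 6 neuroendocrine markers (CHGA, SYP and others) summed to between 1490.1 and 1624.7 CPM in NCI-H660 shCtrl and to between 0.968 and 2.23 CPM over all C4-2B libraries. Both lines therefore carried the markers their labels call for. All CPM values of single libraries were normalized by the trimmed mean of M values (TMM) over the 8 libraries.

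The levels of the 10 genes were first compared per length of transcript, as TPM computed by the authors, which divides counts by gene length and scales each library to the same sum. IGFBP2 was the highest of the 10 in all 4 groups, with 52.5 ± 0.780 TPM in C4-2B control, 58.5 ± 2.23 in C4-2B MYCL, 2255.9 ± 667 in NCI-H660 shCtrl and 1580.1 ± 149 in NCI-H660 shMYCL cells (mean ± SD, n = 2 libraries here and below). Among the genes of NCI-H660 shCtrl cells it took rank 41 by mean TPM. In C4-2B control cells the order went on with IGF2R, IGF1R, INSR, IRS1, IRS2 and IGF2, and IGF2 and IGFBP4 did not separate by library. In NCI-H660 shCtrl cells the order was IGFBP2, IGFBP5, IGF2R, IGFBP6, INSR, IGFBP4, IGF1R, IRS2, IRS1 and IGF2, with only INSR and IGFBP4 overlapping their neighbour. Thus receptors stood just behind IGFBP2 in C4-2B cells, and 2 binding proteins led in NCI-H660 cells. IGFBP2 (chr2:216632828-216664436, plus strand) and IGFBP5 (chr2:216672105-216695549, minus strand) are neighbours in the GENCODE annotation of hg38, while IGF2 lies at chr11:2129112-2158391, IGF1R at chr15:98648539-98964530, IGF2R at chr6:159969082-160113507 and IRS1 at chr2:226731312-226799820. The plot of TPM by library shows these levels.

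**Figure D1:**
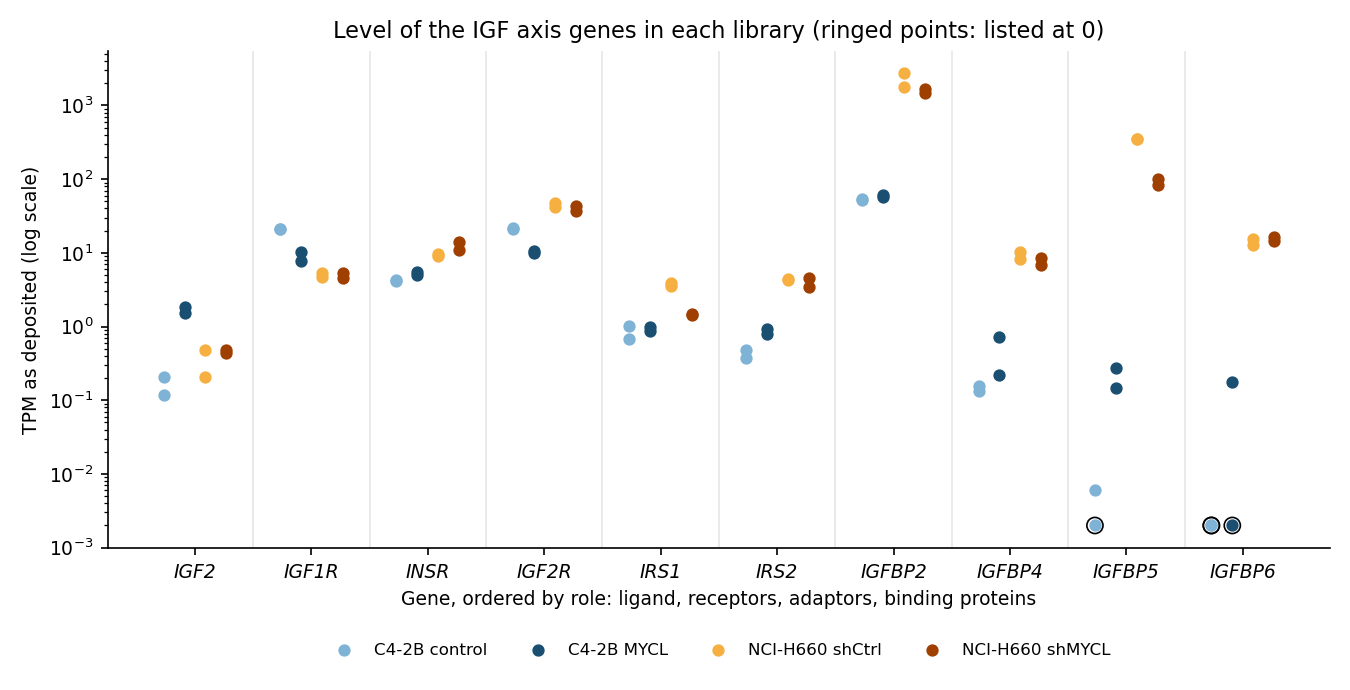
TPM of each of the 10 genes (log axis) in each library, with the 4 groups in colour and ringed points for libraries listed at 0. IGFBP2 is the highest in every group, and IGFBP5 is near 350 TPM in NCI-H660 shCtrl cells but under 0.3 TPM in all C4-2B libraries.

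The change with MYCL in C4-2B cells was tested for 8 of the 10 genes, since IGFBP4 and IGFBP6 had too few counts. A gene was called when its adjusted p in edgeR's quasi-likelihood test was under 0.05 and its log2 fold change was at least 0.5 in size. IGF2, IGFBP5 and IRS2 rose and IGF1R and IGF2R fell, while INSR, IRS1 and IGFBP2 were not called. Of all 16866 genes tested, 11.8% were called higher and 8.12% lower. IGF2 and IGFBP5 needed their MYCL libraries to pass the filter on counts, so their calls could only come out higher. The calls among the 10 genes are therefore not read against these shares.

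IGF2, the fetal growth factor ligand, was counted 8 and 18 times in the controls and 97 and 73 times with MYCL. Both MYCL libraries stood above both controls, from 0.260 and 0.799 CPM to 5.53 and 4.41 CPM. The log2 fold change was 3.29 with a standard error of 0.47. It was 4.23 without the second control library and 2.62 without the first. With 8 counts in the first control library, IGF2 needed its MYCL libraries to pass the filter on counts. Its call could therefore only come out higher, so no adjusted p is given and the counts are read instead. The ratio of summed counts, divided by the summed TMM library sizes here and below, was 10.2, with an exact 95% counting interval from 6.73 to 16.1. At 1.68 ± 0.198 TPM in MYCL cells, IGF2 took rank 12414 among all genes. The annotation places 20.4% of its exonic bases in INS-IGF2 and 37.9% in an unnamed protein-coding gene on the same strand, both of which had 0 counts in every library.

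IGF1R, the signalling receptor for both ligands, had 225.9 and 223.7 CPM in control and 118.1 and 96.8 CPM in MYCL libraries. It fell by 1.06 on the log2 scale with a standard error of 0.10 (edgeR adjusted p = 1.15e-04). IGF2R, the clearance receptor, had 263.9 and 268.4 CPM in control and 137.5 and 139.7 CPM in MYCL libraries. It fell by 0.94 with a standard error of 0.07 (edgeR adjusted p = 4.25e-05). The groups did not overlap for either receptor. With 2 against 2 libraries this also held for small changes of other genes, and the share over all genes was not computed. Groups that do not overlap are therefore only a description, for these and the other genes. INSR had 31.6 and 32.7 CPM in control and 43.5 and 40.8 CPM in MYCL libraries, and its log2 fold change of 0.40 (edgeR adjusted p = 0.00727) was under the minimum size. The summed level of the luminal markers moved with these receptors, from a range of 3970.6 to 3990.4 CPM in control to 3089.6 to 3158.2 CPM in MYCL libraries, with 2 of 7 called lower and none at 0, and its part in the result was not tested. In bulk RNA, fewer cells of a type and less RNA per cell cannot be told apart.

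IRS2 was counted 82 and 76 times in the controls and 123 and 105 times in the less deeply sequenced MYCL libraries, which is 2.67 and 3.38 CPM against 7.01 and 6.34 CPM. Both MYCL libraries were higher, with a log2 fold change of 1.16 and a standard error of 0.24 (edgeR adjusted p = 0.00568). IRS1, the other main adaptor, had 3.93 and 5.55 CPM in control and 6.44 and 6.22 CPM in MYCL libraries. Its log2 fold change of 0.43 with a standard error of 0.24 (edgeR adjusted p = 0.196) was not called.

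IGFBP5 was at the limit of detection in C4-2B control cells, with 1 and 0 counts, and had 27 and 15 counts in MYCL libraries. The ratio scaled to library size was 65.6, with an exact 95% counting interval from 11.1 to 2651.5. IGFBP5 entered the test through its MYCL libraries alone, so its call is read only as the detection of counts in that group. IGFBP5 reached 0.209 ± 0.0873 TPM in MYCL cells, far under the 349.5 ± 4.78 TPM of NCI-H660 shCtrl cells. Of 28 genes with a mean of at least 100 CPM over the NCI-H660 libraries and at most 1 count over both C4-2B control libraries, 23 also had at most 1 count over both MYCL libraries. Only IGFBP5, with 42 counts, and the chemokine gene CXCL8, with 11, had 10 or more there. IGFBP5 was also the most abundant of the 28 in NCI-H660, with a mean of 777 CPM over its libraries, beside 340 CPM for CXCL8. CXCL8 was named after its values were seen.

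IGFBP2 had 37.9 and 38.3 CPM in control and 43.5 and 49.6 CPM in MYCL libraries, and its log2 fold change of 0.29 with a standard error of 0.09 (edgeR adjusted p = 0.0336) was under the minimum size. IGFBP4 was counted 7 and 6 times in the controls and 7 and 23 times with MYCL, a ratio scaled to library size of 3.6 with an exact 95% counting interval from 1.82 to 7.53. Most of that difference came from the second MYCL library. IGFBP6 had 0 counts in both control libraries and 2 and 0 counts in the MYCL libraries, all under the 3 counts that a count of 0 allows, so no fold is given. Counting intervals cover counting error only.

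In NCI-H660 cells all 10 genes were tested. IGFBP5 and IRS1 fell with knockdown of MYCL, no gene of the 10 was called higher, and the other 8 were not called. Of 16980 genes tested, 7.18% were called higher and 8.99% lower. The median log2 fold change was -0.14, beside -0.003 over all genes.

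IGFBP5 shares 7.5% of its exonic bases with an antisense RNA, DIRC3-AS1, and how strand was used in counting is not given in the sources used here. IGFBP5 had 1208.3 and 1253.0 CPM in shCtrl and 293.3 and 357.2 CPM in shMYCL libraries. Both knockdown libraries were far under both controls, and the level fell by 1.92 on the log2 scale with a standard error of 0.12 (edgeR adjusted p = 4.47e-08), a fold of 3.79. The list of 9 stromal, endothelial and immune markers moved with it, from a range of 108.5 to 111.2 CPM in shCtrl to 69.3 to 75.0 CPM in shMYCL libraries. Most of that sum was COL1A2, with 1815, 1938, 1032 and 1004 counts, while DCN, a defining fibroblast gene, had 0 counts in every library. In C4-2B the same list lay between 11.8 and 14.2 CPM in control and between 22.8 and 22.9 CPM in MYCL libraries, with COL1A2, DCN, LUM and PTPRC at 0. The part of these markers in the IGFBP5 result was not tested.

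IRS1 had 15.0 and 18.7 CPM in shCtrl and 6.86 and 6.96 CPM in shMYCL libraries. The groups did not overlap, and IRS1 fell by 1.29 with a standard error of 0.17 (edgeR adjusted p = 7.75e-05). IRS2 had 19.2 and 20.9 CPM in shCtrl and 21.5 and 16.2 CPM in shMYCL libraries, so its groups overlapped, and its log2 fold change was -0.09 with a standard error of 0.15 (edgeR adjusted p = 0.691).

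IGFBP2 differed more within shCtrl than between the groups, with 885.3 and 1480.0 CPM in shCtrl and 782.9 and 894.8 CPM in shMYCL libraries. Its log2 fold change was -0.50 with a standard error of 0.17 (edgeR adjusted p = 0.0422), just under the minimum size before rounding. Without the second shCtrl library it was -0.08, and without the first it was -0.82, which was called. It was also called without the second shMYCL library, at -0.60.

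INSR had 45.0 and 48.5 CPM in shCtrl and 66.1 and 57.1 CPM in shMYCL libraries, and both knockdown libraries were higher. Its log2 fold change of 0.39 with a standard error of 0.12 (edgeR adjusted p = 0.0211) was under the minimum size. IGF1R had 36.4 and 33.9 CPM in shCtrl and 38.0 and 31.9 CPM in shMYCL libraries, with a log2 fold change of -0.01. The 95% interval of that change spanned -0.26 to 0.24. IGF2R, IGFBP4, IGFBP6 and IGF2 had log2 fold changes of -0.18, -0.27, 0.11 and 0.52, with edgeR adjusted p from 0.259 to 0.767. IGF2 had 9 and 25 counts in shCtrl and 20 and 22 in shMYCL libraries, so that at this depth only a large change could have been seen.

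**Figure D2:**
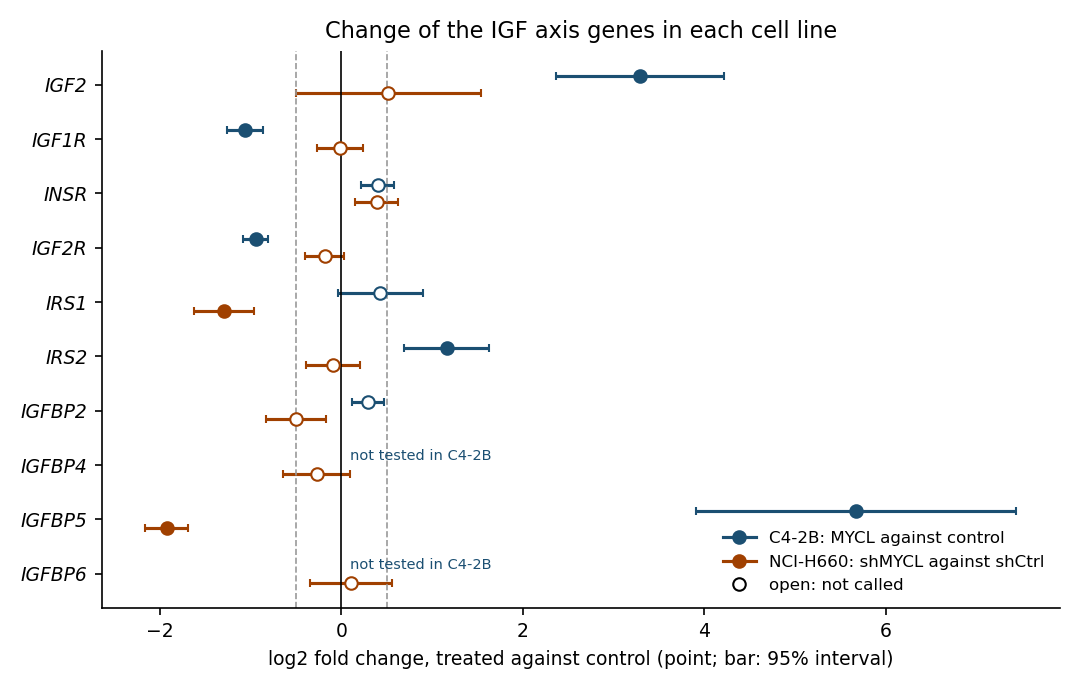
The log2 fold change of each gene, C4-2B MYCL against control in blue and NCI-H660 shMYCL against shCtrl in brown, with bars for the approximate 95% interval, filled points for called genes and dashed lines at the minimum size of 0.5. The receptors IGF1R and IGF2R are called in C4-2B and not in NCI-H660, IRS1 is called in NCI-H660 and not in C4-2B, and the IGFBP5 point in C4-2B rests on 1 control count, so its position depends on the prior count.

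The promoters of the genes are shown because MYCL belongs to the MYC family, whose dimers with MAX bind the E-box CACGTG, and because FOXO factors bind the core GTAAACA. Windows from 250 bases before to 50 bases after the transcription start were taken from RefSeq (GRCh38.p14) for 9 of the 10 genes, with 3 start sites for IGFBP2. Both motifs were searched on both strands. The E-box reads the same on either strand, and no 2 matches overlapped. The E-box was in 7.26% of 35116 promoters of the same length and the FOXO core in 3.4%. IGF2R, which fell in C4-2B MYCL cells, held 3 E-boxes, and 33 of all promoters, or 0.094%, held at least 3. Its window was chr6:159968832-159969131 on the plus strand, with the E-boxes in capitals.
IGF2R: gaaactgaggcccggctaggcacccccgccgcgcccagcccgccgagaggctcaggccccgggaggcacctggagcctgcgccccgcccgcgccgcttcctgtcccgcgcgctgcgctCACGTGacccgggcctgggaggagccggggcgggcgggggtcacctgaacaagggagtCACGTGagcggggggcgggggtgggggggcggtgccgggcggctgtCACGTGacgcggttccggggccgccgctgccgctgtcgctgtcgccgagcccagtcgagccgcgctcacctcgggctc
IRS1, which fell in NCI-H660 shMYCL cells, held 1 E-box, in capitals, 35 bases after the start. Its window was chr2:226799771-226800070 on the minus strand.
IRS1: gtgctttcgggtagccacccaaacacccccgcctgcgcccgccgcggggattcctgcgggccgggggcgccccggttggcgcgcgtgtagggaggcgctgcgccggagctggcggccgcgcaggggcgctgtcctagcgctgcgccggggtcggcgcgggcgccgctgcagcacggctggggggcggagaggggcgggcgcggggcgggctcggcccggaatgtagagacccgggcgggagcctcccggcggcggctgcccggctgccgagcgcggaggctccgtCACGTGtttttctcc
IGFBP5, the gene of the 10 with the largest fitted change in each line, held neither motif in its window at chr2:216695500-216695799 on the minus strand, so nothing is in capitals.
IGFBP5: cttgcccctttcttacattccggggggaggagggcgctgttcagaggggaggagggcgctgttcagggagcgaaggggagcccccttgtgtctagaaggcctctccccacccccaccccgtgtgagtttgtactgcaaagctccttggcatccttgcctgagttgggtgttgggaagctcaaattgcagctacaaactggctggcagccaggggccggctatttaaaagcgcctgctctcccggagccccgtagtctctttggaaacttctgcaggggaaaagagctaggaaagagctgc
The FOXO core was found once, in the promoter of IGFBP6, and neither motif was in the windows of IGF1R, INSR, IRS2, IGFBP2 or IGFBP4. A match is a description of letters and not of binding.

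The 2 control groups were then set side by side, although cell line, vector, delivery and medium cannot be told apart between them. Of the 10 genes, 7 were called higher in NCI-H660 shCtrl than in C4-2B control cells, 1 was called lower and 2 were not called. Over all 19605 genes tested, 36.5% were called higher and 33.3% lower. All 4 binding proteins, both adaptors and INSR were higher in NCI-H660, and IGF1R was the gene that was lower. IGFBP4, IGFBP5 and IGFBP6 had at most 7 counts in any C4-2B control library, too few to pass the filter there. Their calls could only come out higher in NCI-H660, so they are read only as detection in that line. The count of 7 genes is not read against the share over all genes.

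The binding proteins differed most. IGFBP5 had 46138 counts over both NCI-H660 shCtrl libraries and 1 over both C4-2B control libraries, a ratio scaled to library size of 65621.6 with an exact 95% counting interval from 11777.2 to 2591972.1. IGFBP6 had 89 and 126 counts against 0 and 0 and was at least 49.5-fold higher in CPM, taking 3 counts per library as the floor. IGFBP4 had 161 and 236 counts against 7 and 6, a scaled ratio of 43.4 with an interval from 25.1 to 82.3. IGFBP2, detected well in both lines, was higher by 4.96 on the log2 scale with a standard error of 0.21 (edgeR adjusted p = 7.15e-11). Together IGFBP2 and IGFBP5 took 0.220% and 0.292% of all counts in shCtrl libraries and 0.114% and 0.131% in shMYCL libraries.

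IGF1R was lower in NCI-H660 by a log2 difference of -2.68 with a standard error of 0.12 (edgeR adjusted p = 1.08e-10). IRS2 was higher by 2.74 with a standard error of 0.19, IRS1 by 1.84 with 0.20 and INSR by 0.54 with 0.10, with edgeR adjusted p from 1.40e-08 to 2.95e-04. INSR lost its call when TPM values were centred on each library's median, at 0.22, and without the second shCtrl library, at 0.50 and just under the minimum size before rounding. IGF2R at 0.45 and IGF2 at 0.81 on the log2 scale were not called, and the IGF2 value was -0.00 without the second shCtrl library and 1.75, which was called, without the second C4-2B control library.

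Ratios of TPM within a library do not depend on its total. INSR over IGF1R was 0.200 and 0.207 in C4-2B control, 0.538 and 0.632 in C4-2B MYCL, 1.69 and 2.05 in NCI-H660 shCtrl and 2.57 and 2.45 in NCI-H660 shMYCL libraries. IGF1R was thus the more abundant receptor transcript in C4-2B and INSR in NCI-H660 cells. IRS2 over IRS1 was 0.547 and 0.469, then 0.934 and 0.911, then 1.19 and 1.10, then 3.27 and 2.36 in the same order of groups. Neither ratio overlapped between control and treated libraries of a line, but with 2 against 2 libraries an exact permutation test cannot go below a two-sided p of 0.33. The 4 binding proteins summed to 53.2 and 52.1 TPM in C4-2B control, 57.6 and 61.0 in C4-2B MYCL, 2158.2 and 3099.4 in NCI-H660 shCtrl and 1581.7 and 1809.9 in NCI-H660 shMYCL libraries.

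**Figure D3:**
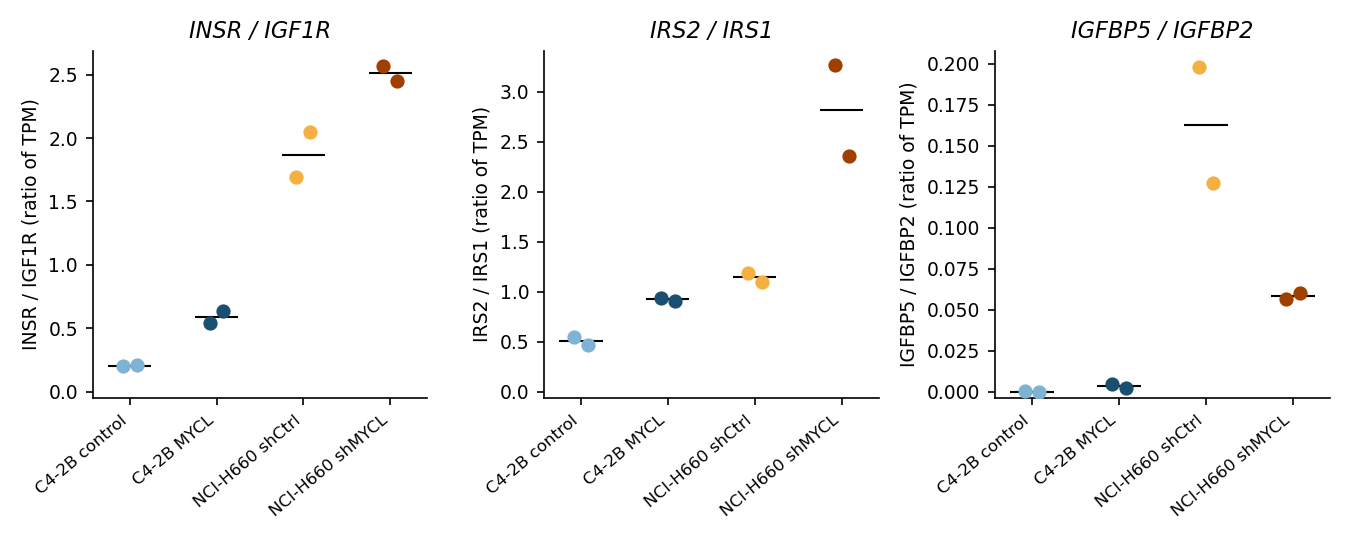
Ratios of TPM of INSR to IGF1R, IRS2 to IRS1 and IGFBP5 to IGFBP2 by group, with 1 point per library and a line at the mean of 2 libraries. INSR over IGF1R rises from 0.200 in a C4-2B control library to 2.57 in a NCI-H660 shMYCL library, and IGFBP5 over IGFBP2 is 0.198 and 0.127 in shCtrl and 0.0566 and 0.0603 in shMYCL libraries.

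MYCL itself changed by 8.26 on the log2 scale in C4-2B MYCL and by -3.06 in NCI-H660 shMYCL cells. The part of this unlike size in the differences below was not tested. Whether MYCL went with the same change in both lines was tested as a difference of effects, high against low MYCL, in 1 fit of all 4 groups. It was called for 6 of the 10 genes, beside 17.9% of 19605 genes in either direction, and for 3 on log2(TPM + 0.1). The 6 include IGFBP5, whose direction depended on the scale, so the count is not read against that share. IGF1R fell with high MYCL in C4-2B by 1.06 and changed by 0.01 in NCI-H660, a difference of -1.08 with a standard error of 0.16 (edgeR adjusted p = 5.90e-04). IGF2R had effects of -0.94 and 0.18, a difference of -1.12 with a standard error of 0.14 (edgeR adjusted p = 1.50e-04). INSR had effects of 0.39 and -0.40, so that INSR was higher in both manipulated groups than in their controls while MYCL went in opposite directions, though it was called in neither line. Its difference was 0.79 with a standard error of 0.15 (edgeR adjusted p = 0.00229), and with log2(TPM + 1) it was 0.64 with an adjusted p of 0.0508 in limma. IGF2 differed by 3.79 with a standard error of 0.74, and IRS2 by 1.06 with a standard error of 0.26 (edgeR adjusted p = 0.00344 and 0.0125).

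IGFBP5 was the one gene of the 10 called with the high-MYCL side higher in each line. It had 27 and 15 counts against 1 and 0 in C4-2B, and 21593 and 24545 counts against 4701 and 5899 in NCI-H660. Its call in C4-2B is read only as the detection of counts in MYCL libraries. The share of all genes called this way in both lines was not computed. The test of the difference gave 3.70 with a standard error of 0.88 (edgeR adjusted p = 0.010) on the log2 count scale, and it turned to -1.64 on log2(TPM + 1), where levels near 0 count little. The order of the effects in the 2 lines thus depended on the scale. IRS1 differed by -0.86 with an adjusted p of 0.0546 and was not called, nor were IGFBP2, IGFBP4 and IGFBP6.

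The other genes of the pathway were read from a list of 47, from ligands to mTOR and the IGF2 mRNA-binding proteins. In C4-2B cells 37 were tested, 5 were called higher and 1 lower, beside 11.8% and 8.12% of all genes. The one that fell was IGF1, the other ligand, counted 3029 and 2135 times in the controls and 439 and 427 times with MYCL, a fall by 1.92 on the log2 scale with a standard error of 0.08 (edgeR adjusted p = 3.91e-06). H19, the imprinted neighbour of IGF2, rose from 49 and 43 counts to 103 and 125, a log2 fold change of 1.95. IGF2BP2, an IGF2 mRNA-binding protein, rose by 1.18, and STC2 and STC1, the stanniocalcins that inhibit the IGFBP-cleaving protease PAPPA, rose by 1.10 and 0.87. GAB1, a docking protein named after its values were seen, rose by 0.71, and it was not called without the first control library, at 0.67. The sum of IGF1 and IGF2 was 34.2 and 32.6 TPM in control and 11.5 and 10.8 TPM in MYCL libraries, so ligand transcript was lower in total while IGF2 rose.

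In NCI-H660 cells 37 genes of the list were tested, and 5 were called higher and 3 lower, beside 7.18% and 8.99% of all genes. STC1 had 1146 and 1380 counts in shCtrl and 280 and 281 in shMYCL libraries and fell by 1.97 with a standard error of 0.12 (edgeR adjusted p = 5.16e-08). STC2 had 3184 and 4415 against 947 and 1022 counts and fell by 1.74 with a standard error of 0.12 (edgeR adjusted p = 1.73e-07). Both stanniocalcins were therefore higher on the high-MYCL side of each line. The size of the effect differed between lines by -1.10 for STC1 and -0.65 for STC2 (edgeR adjusted p = 6.72e-04 and 0.0103), and the size of the MYCL change differed too. The STC2 value of -0.48 without the second shCtrl library was under the minimum size. PAPPA had 64 and 66 counts in shCtrl and 91 and 87 in shMYCL libraries and was not called. FOXO1 fell by 0.74. IGF2BP2 rose by 1.70, the insulin receptor-related receptor INSRR by 1.39, the receptor adaptor GRB14 by 1.03, the mTORC1 subunit RPTOR by 0.56 and the adaptor SHC1 by 0.51, and SHC1 was named after its values were seen. With 4 genes called without the first shCtrl library, this count depended on single libraries. GRB14 lost its call without any 1 of the 4 libraries (values of 0.88 to 1.19), and INSRR without each library except the second shCtrl (1.19 to 1.59). RPTOR without the first shCtrl library was 0.46, FOXO1 without the first shMYCL library was -0.64, and SHC1 was 0.49 without the first shCtrl and 0.48 without the second shMYCL library, none of them called. IGF2BP2, like INSR, was higher in both manipulated groups than in their controls.

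**Figure D4:**
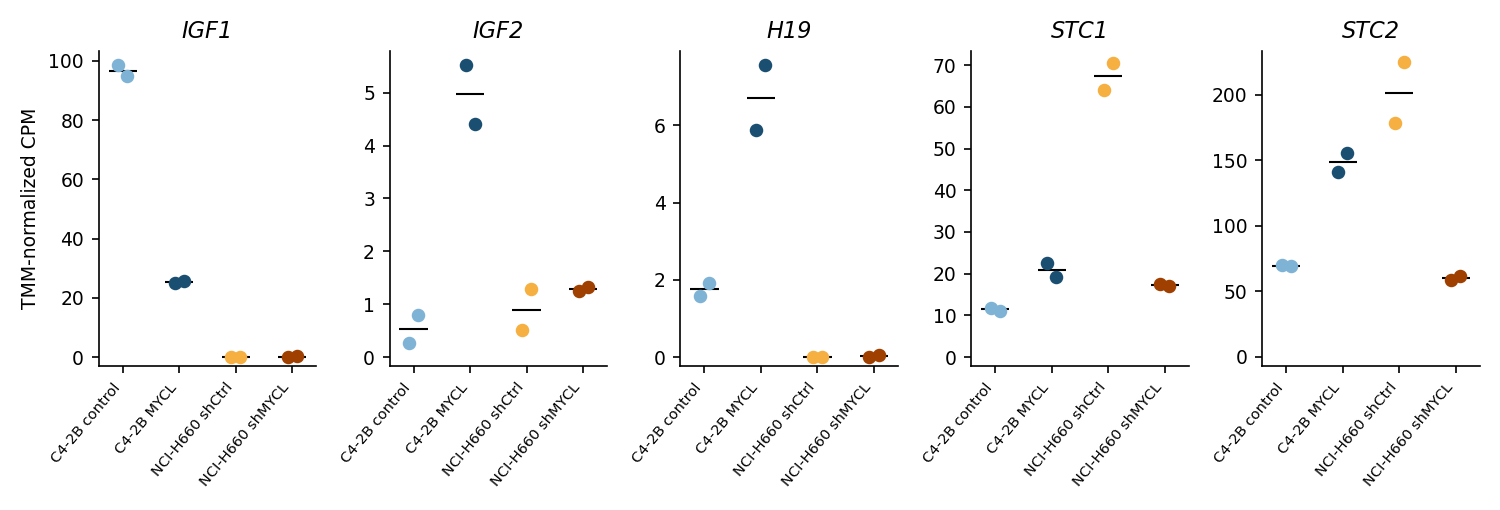
TMM-normalized CPM of the ligands IGF1 and IGF2, the imprinted RNA H19 and the stanniocalcins STC1 and STC2 by group, with 1 point per library, a line at the mean of 2 libraries and a separate linear axis per gene. IGF1 falls and IGF2 and H19 rise in C4-2B MYCL libraries, and STC1 and STC2 rise there and fall in NCI-H660 shMYCL libraries.

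Between the control groups, 41 genes of the list were tested, 17 were higher in NCI-H660 and 9 lower, beside 36.5% and 33.3% of all genes. Genes such as IGF1, H19, INSRR and IGFALS could only be called toward the line where they were counted. These counts are therefore not read against the shares. IGF1 had 0 counts in both NCI-H660 shCtrl libraries and was at least 602.1-fold higher in C4-2B control cells, and H19 was at least 10.9-fold higher there. IGFBP3 had 78 and 59 counts in C4-2B control and 0 and 3 in NCI-H660 shCtrl libraries, a scaled ratio of NCI-H660 to C4-2B of 0.0311 with an exact 95% counting interval from 0.00634 to 0.093. The PI3 kinase subunit PIK3R2 and the adaptor GRB10 were lower in NCI-H660, with log2 differences of -2.40 and -1.99. INSRR, with 13 and 18 counts against 0 and 0, was at least 7.13-fold higher, and IGFALS, the subunit that stabilizes IGFs in serum, had 26 and 18 counts against 4 and 0. No transcript of INS, IGFBP1 or INS-IGF2 was counted in any library, so the ligand transcripts counted in NCI-H660 were IGF2 and, in 1 shMYCL library, 5 counts of IGF1.

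Genes known to be activated by FOXO factors were read from a list of 12. In C4-2B cells 8 of 11 tested were higher and 1 lower, beside 11.8% and 8.12% of all genes, with a median log2 fold change of 0.95 beside -0.002 over all genes. GADD45A, a DNA damage-inducible gene, rose by 2.32, the stress-induced mTORC1 inhibitor SESN3 by 1.46, the transcription factor KLF6 by 1.22, the atrophy ubiquitin ligase FBXO32 by 1.20 and the cell cycle inhibitor CDKN1B by 1.02. BCL2L11, which encodes the pro-apoptotic protein BIM, fell by 0.66. In NCI-H660 cells 1 of 12 was higher and 3 were lower, beside 7.18% and 8.99% of all genes, with a median of -0.28. PDK4, an inhibitor of pyruvate oxidation, rose by 1.66, while the atypical cyclin CCNG2 fell by 1.32, FBXO32 by 1.21 and CDKN1B by 0.52, which was -0.46 and not called without the first shMYCL library. Of the 11 genes tested in both lines, 9 had a positive change in C4-2B MYCL and a negative one in NCI-H660 shMYCL cells, but 3 were called in both. The same counts over all genes were not computed, and the list was chosen with earlier results of these data known. These counts are therefore a description of the list only. CDKN1B was outside the rule for named genes in both lines and was named after its values were seen. In the control comparison 9 of 12 were higher in NCI-H660 and 1 lower, beside 36.5% and 33.3% of all genes. FBXO32 was higher by 4.50. PDK4, with 120 and 110 counts against 4 and 3, entered the test through NCI-H660 and could only come out higher. Its call is read only as detection in that line, and the count of 9 is not read against the share over all genes.

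**Figure D5:**
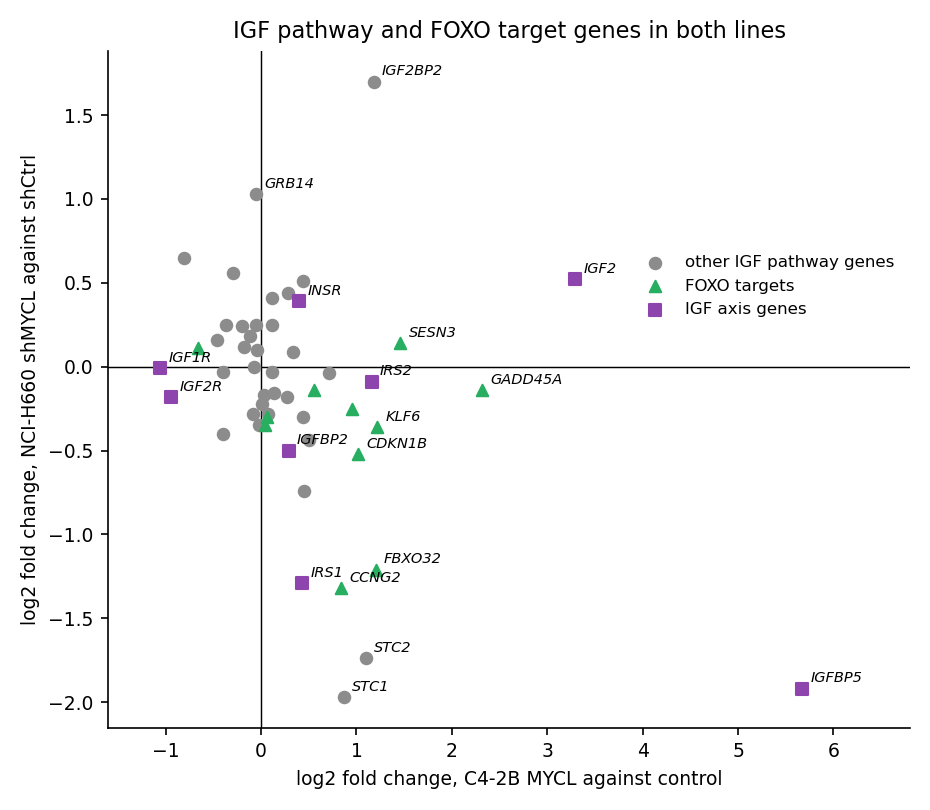
The log2 fold change of each gene tested in both lines, C4-2B MYCL against control on the horizontal axis and NCI-H660 shMYCL against shCtrl on the vertical axis, for the IGF axis genes, the other pathway genes and the FOXO targets. STC1, STC2, CCNG2, FBXO32 and IGFBP5 lie at the lower right, higher with MYCL and lower with its knockdown, IGF2BP2 lies at the upper right, and the horizontal place of IGFBP5 depends on the prior count.

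The genes most alike in pattern over the 8 libraries were sought for IGFBP5, IGF2 and IRS1, by Pearson's r of log2 CPM over 10173 genes, as a description in which the 8 points share 2 lines and 4 groups. For IGFBP5 they were STARD4 (r = 0.998), TNS1 (0.997) and PPM1L (0.997), and TNS1 had 44 and 43, 92 and 84, 2222 and 2486, and 1261 and 1166 counts in the 4 groups. For IGF2 they were ASAP3 (0.987), NGRN (0.979) and HSPA1B (0.961), and ASAP3 was counted 368 and 335 times in C4-2B control and 489 and 437 times in C4-2B MYCL libraries. For IRS1 they were CAMK2G (0.984), CIART (0.983) and PPFIA4 (0.977), and CIART had 616 and 813 counts in NCI-H660 shCtrl and 202 and 227 in NCI-H660 shMYCL libraries.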

How the data were processed

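Poly(A) RNA of 8 libraries was sequenced as paired ends. Estimated counts per gene were deposited by the authors without normalization (genome build hg38 per the labels), 22.4% of the non-zero values were not whole within 0.01, and all were rounded before testing. The aligner and counter are not given in the sources used here. TPM values were deposited by the authors as counts divided by Ensembl gene length and scaled, for the first 65535 of 78691 genes.

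Groups came from the labels. Each line was fitted on its own, and the control comparison and the difference of effects were fitted over all 4 groups, in edgeR 4.0.16 (R 4.3.3) with TMM, filterByExpr, the quasi-likelihood test and Benjamini-Hochberg adjustment over all genes tested. Standard errors were the log2 fold change divided by the root of the F statistic. edgeR estimated a common biological variation (BCV) of 0.083 for C4-2B, 0.097 for NCI-H660 and 0.093 over all groups. On simulated counts with 200 genes changed by 1.5 on the log2 scale, edgeR recovered 178, 183, 173 and 158 in C4-2B, NCI-H660, the control comparison and the difference. Alternatives were DESeq2 1.42.0, limma 3.58.1 on TPM, other filters and thresholds, and leaving out each library. The named genes were the 10 members, up to 5 called genes of the pathway and FOXO lists in each direction and comparison, MYCL, and 3 genes most alike in pattern to each of 3 members. The members and lists were chosen with earlier results of these data known, and some genes of the lists are not reported here. Gene annotation was GENCODE release 44, to which 61458 of 78691 identifiers matched.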

Additional observations from a re-analysis of the deposited data

Results flagged for a closer look

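For 6 of the 10 genes the effect of high against low MYCL differed between C4-2B and NCI-H660 cells, by a test of the difference itself in edgeR over all 4 groups. The differences, C4-2B minus NCI-H660 on the log2 scale, were 3.70 for IGFBP5, -1.08 for IGF1R, 3.79 for IGF2, 0.79 for INSR, 1.06 for IRS2 and -1.12 for IGF2R. The ligand, the adaptor IRS2 and INSR thus stood on the side of C4-2B, and IGF1R and IGF2R on the other side. The IGFBP5 value rests on 1 count in C4-2B control libraries, and its direction depended on the scale, so it is not read as a differing effect. The IGF2 value rests on 8 and 18 counts in those libraries. The IRS2 difference lost its call without the first C4-2B control library, at 0.88, and without the first shMYCL library, at 0.84. MYCL was raised by a vector in one line and lowered by an shRNA in the other, with log2 fold changes of 8.26 and -3.06. Line, kind of manipulation and size of the MYCL change therefore cannot be told apart.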

How the results depend on the processing

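Of the single-gene values, 536 kept their direction and side of the threshold under the alternatives, 18 gained a call, 15 lost one and 11 changed sign. Signs changed for IGF1R in NCI-H660 without shCtrl 1 (0.04) and without shMYCL 2 (0.11; range -0.14 to 0.11), IRS2 in NCI-H660 without shMYCL 2 (range -0.31 to 0.10), IGFBP6 in NCI-H660 without shCtrl 1 (range -0.06 to 0.31), IGF2 between control groups without shCtrl 2 (range -0.00 to 1.75) and on centred TPM (-0.55), and the IGFBP2 difference without shCtrl 2 (range -0.54 to 0.20). The IGFBP5 difference was -1.64 on log2(TPM + 1) with and without a filter, -0.36 on log2(TPM + 0.1) and -1.55 on centred TPM. Calls among the 10 genes in C4-2B went from 5 to 3 with at least 10 counts in every library and with each of the 4 TPM settings. With at least 10 counts, IGF2 and IGFBP5 were not tested. In NCI-H660 they went from 2 to 0 on unfiltered log2(TPM + 1) in limma, where 1 of 29413 genes was called and 5469 had an unadjusted p under 0.05, and to 4 with no minimum fold. Between control groups they went from 8 to 5 with at least 10 counts, and for the difference from 6 to 3 on log2(TPM + 0.1).

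Pathway calls in C4-2B went from 6 to 15 with no minimum fold. In NCI-H660 they went from 8 to 5 in DESeq2, on centred TPM and with a minimum of 1, to 4 on log2(TPM + 1) and log2(TPM + 0.1), to 0 on unfiltered TPM and to 13 with no minimum fold, and leaving out 1 library gave 4 to 8. For the difference they went from 7 to 2 with a minimum of 1. Calls over all genes in C4-2B, 3355, became 1940 on unfiltered TPM, 5895 with no minimum fold and 1411 with a minimum of 1. In NCI-H660, 2745 became 1702 on log2(TPM + 1), 1600 on log2(TPM + 0.1), 1692 on centred TPM, 4204 with no minimum fold and 1022 with a minimum of 1. Between control groups, 13687 became 8512 with at least 10 counts, and for the difference 3513 became 1898 on unfiltered TPM and 1666 with a minimum of 1. The cause was not tested.

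On log2(TPM + 1) the median change of all genes moved by -0.140 in C4-2B and by 0.492 between control groups, and the share of calls that were higher went from 59.2% to 33.5% in C4-2B and from 52.2% to 71.1% between control groups. Centring on each library's median, an alternative chosen after seeing the data, gave 60.7% and 40.8%. In C4-2B no gene of the 10 that passed the filter changed sign on these scales.

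Replicate numbers did not pair the samples, with correlations of deviations of 0.033 in C4-2B and 0.046 in NCI-H660. With the replicate block, 5, 2, 8 and 6 of the 10 genes were called in C4-2B, NCI-H660, the control groups and the difference, as without it, and 3536, 2949, 13579 and 3436 genes in all. Genes with under 10 counts in any C4-2B library, here IGF2, IGFBP4, IGFBP5 and IGFBP6, are limited by depth in that line.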
